A study of Mus musculus with 32 samples.

Results

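Kidneys of female C57BL/6 mice were compared between Day 3 and Day 2 after cisplatin, with 4 mice on each day. The 8 libraries were chosen by sex and day alone from the 32 libraries of a time course of both sexes. C57BL/6 is an inbred laboratory strain, and the mice were wild type and 6 to 8 weeks old. All 8 had received 1 intraperitoneal injection of cisplatin at 20 mg/kg, so neither group is untreated. Each library held RNA of the whole kidney of 1 mouse, and a difference between days is a difference between separate animals. The comparison asks which transcripts still moved from the first to the next sampled day of the injury. In bulk RNA, fewer cells of a type and less RNA per cell cannot be told apart.

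Cisplatin is a platinum drug that crosslinks DNA and is taken up by cells of the proximal tubule, the segment that recovers most of the filtered salt, phosphate and small protein. Damaged tubule cells are known to switch on p53 target genes, to lose transporters and to release chemokines that call neutrophils and monocytes into the kidney. Lcn2 (NGAL) and Havcr1 (KIM-1) are the usual RNA and protein markers of such injury.

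The libraries held between 21919618 and 33729363 counts. All 8 carried Xist, between 3148 and 14054 counts, and none had a count on 4 Y-linked genes. The proximal tubule markers fixed for the tissue check were abundant in each library, with 6 genes summing to between 3784 and 12327 CPM. The unit CPM is the usual read count scaled to 1 common library size, here with TMM factors. A pair of libraries stood apart from the rest. Day 2 mouse 1 lay at -79.6 on the first principal component, against -7.12 to 24.0 for the other libraries, and carried 4.87% of its counts on mitochondrial genes against at least 8.90% elsewhere. Day 3 mouse 2 lay at -52.6 on the second component, and its median correlation with the other libraries was 0.970, against 0.964 for Day 2 mouse 1 and between 0.978 and 0.985 for the rest. Several values that rest on these libraries are also given without them.

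No gene passed the threshold for a differentially expressed gene (DEG), which was a Benjamini-Hochberg adjusted p under 0.05 with an absolute log2 fold change over 1.5. With edgeR's quasi-likelihood test, 0 of 16974 genes were called (0%), and the smallest adjusted p was 0.0996, for Akr1cl. At an unadjusted p under 0.05 there were 678 genes (3.99%), below the share of 0.05 that no change in any gene would give. Of these, 460 were higher at Day 3 (2.71%) and 218 were lower (1.28%). In 280 genes (1.65%) every Day 3 mouse lay above every Day 2 mouse, and in 205 (1.21%) every Day 3 mouse lay below. Chance alone gives 2.86% for both directions together, so lack of overlap in a named gene is a description. The DESeq2 Wald test called 60 genes higher (0.303%) and 1 gene lower (0.00505%) on the same libraries. Without Day 3 mouse 2, edgeR called 27 genes higher (0.158%) and 1 lower (0.00584%). Without any other single mouse it called 0. limma voom with sample quality weights called 1 gene in each direction (0.00589% each).

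The day accounted for a share of 0.188 of the squared distance between the 8 libraries. Among all 35 ways to divide the 8 mice into groups of 4, the exact permutation p of this share was 0.143 (one-sided), and the smallest p that the design allows is 0.0286. Without Day 3 mouse 2 the share was 0.258, with an exact permutation p of 0.0286. Most of the distance thus lay between mice of the same day.

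**Figure D1:**
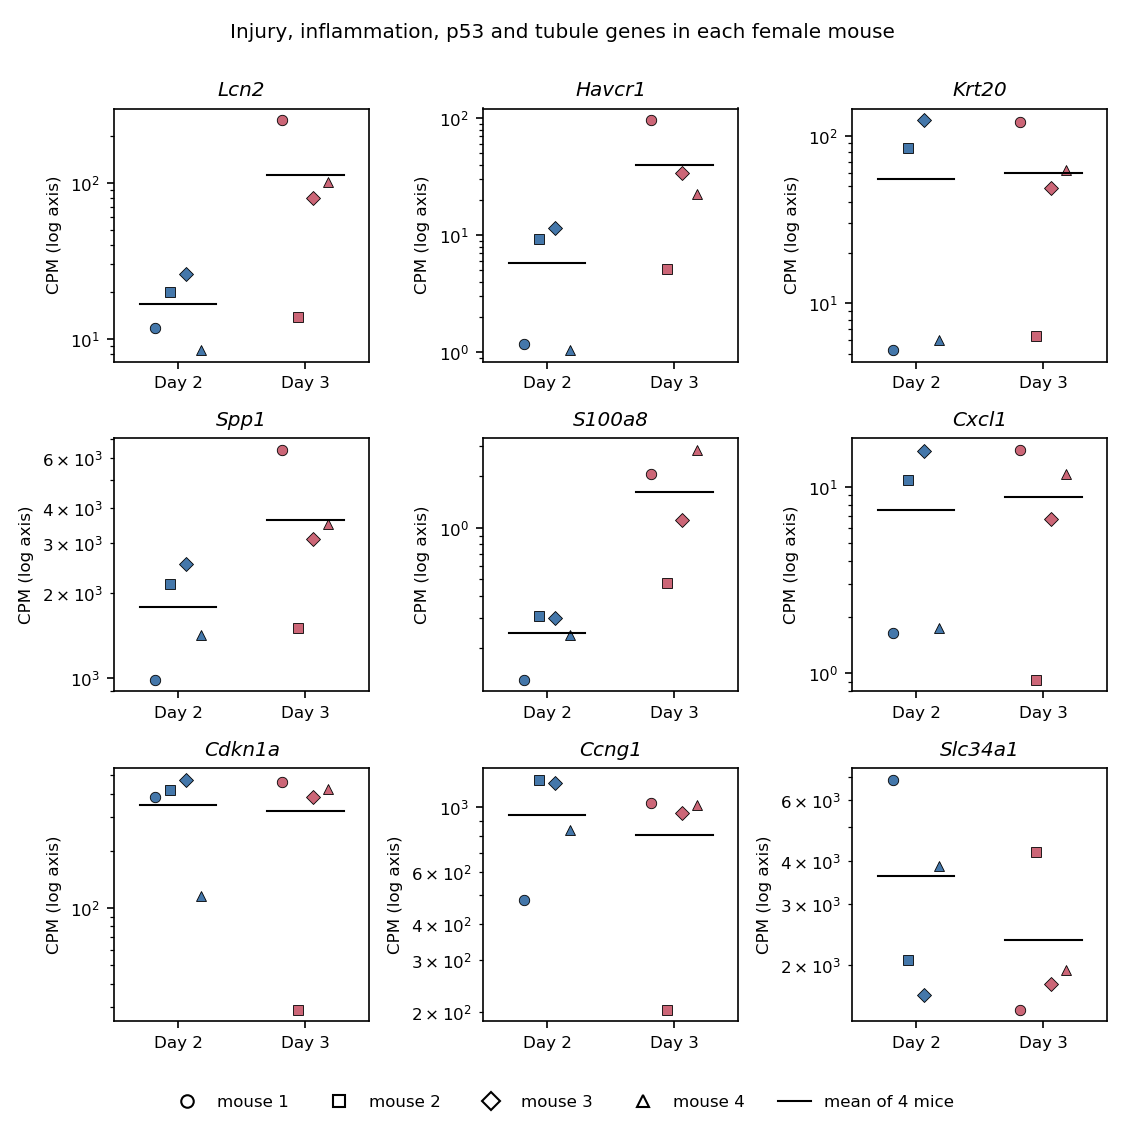
CPM on a log axis for 9 genes in each of the 4 Day 2 (blue) and 4 Day 3 (red) female mice; symbols mark the mouse number, which does not pair mice between days, and bars the mean of 4 mice. Day 3 mouse 2 (square) lies below the other Day 3 mice in Lcn2, Havcr1, Krt20, Spp1, S100a8, Cxcl1, Cdkn1a and Ccng1 and above them in Slc34a1.

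Among 34 tubule injury markers, 30 were tested, 25 had a positive log2 fold change and 0 passed the threshold. Their median log2 fold change was 0.30, and it was 0.55 without Day 3 mouse 2 and 0.095 without Day 3 mouse 1. The median over all 16974 genes tested was -0.00379. Lcn2 (ENSMUSG00000026822, GRCm38 chr2:32384633-32388252, minus strand), which encodes the siderophore-binding protein NGAL, stood at 11.8, 20.1, 26.2 and 8.48 CPM in Day 2 mice 1 to 4 and at 252, 13.8, 80.2 and 101 CPM in Day 3 mice 1 to 4. Of the Day 3 mice, mouse 2 alone lay within the Day 2 range. The log2 fold change was 2.74 (SE 0.69, adjusted p = 0.617 by edgeR), and without Day 3 mouse 2 it was 3.11 (SE 0.45, adjusted p = 0.0286 by edgeR). The 4 female mice at Day 0 ranged from 2.30 to 6.90 CPM and those at Day 5 from 14.3 to 125 CPM, scaled over the 16 female libraries.

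Havcr1 (GRCm38 chr11:46735080-46779578, plus strand) encodes KIM-1, a phosphatidylserine receptor of injured proximal tubule cells. It stood at 1.17, 9.32, 11.5 and 1.04 CPM at Day 2 and at 96.5, 5.10, 34.2 and 22.3 CPM at Day 3. The Day 2 values formed a low and a high pair, and Day 3 mouse 2 lay between them. The log2 fold change was 2.76 (SE 0.98), with an adjusted p of 0.969 by edgeR. The log2 fold change was 3.12 (SE 0.80) without Day 3 mouse 2, 2.42 (SE 1.11) without Day 2 mouse 1 and 1.82 without Day 3 mouse 1. Krt20, a keratin, was low in Day 2 mice 1 and 4 and in Day 3 mouse 2. Its level was 5.25, 84.3, 124 and 6.06 CPM at Day 2 and 121, 6.37, 48.8 and 62.2 CPM at Day 3, a log2 fold change of 0.11 (SE 1.06) that changed sign without Day 2 mouse 1, Day 2 mouse 4 or Day 3 mouse 1.

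Spp1, the secreted glycoprotein osteopontin, was the most abundant of the named injury genes, at 984, 2154, 2537 and 1423 CPM at Day 2 and 6406, 1504, 3092 and 3507 CPM at Day 3. Day 3 mouse 2 again fell inside the Day 2 range, and the log2 fold change was 1.03 (SE 0.42), or 0.61 without Day 3 mouse 1. Cd44, the hyaluronan receptor, was the injury marker whose groups did not overlap. It stood at 1.82, 2.58, 2.58 and 2.56 CPM at Day 2 and at 4.43, 2.99, 10.2 and 11 CPM at Day 3 (log2 fold change 1.58, SE 0.39, adjusted p = 0.610 by edgeR), and DESeq2 called it. Its highest values were in Day 3 mice 3 and 4, the mice with the highest level of adrenal genes, whereas Lcn2, Havcr1 and Spp1 were highest in Day 3 mouse 1, and the part of adrenal tissue in it was not tested. Sprr2g, of the small proline-rich protein family, was between 0.0868 and 0.767 CPM at Day 2 and between 0.474 and 3.12 CPM at Day 3.

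Genes of infiltrating neutrophils stood at low levels. S100a8 and S100a9 encode the subunits of calprotectin, the main cytosolic protein of neutrophils. S100a8 was at 0.130, 0.307, 0.299 and 0.237 CPM at Day 2, from 3 to 10 counts, and at 2.07, 0.474, 1.10 and 2.84 CPM at Day 3, from 16 to 76 counts. The groups did not overlap, the log2 fold change was 2.68 (SE 0.56) and the adjusted p was 0.461 by edgeR. S100a9 was at 0.391, 0.521, 0.822 and 0.758 CPM at Day 2 and 2.73, 0.504, 2.06 and 3.33 CPM at Day 3, so that mouse 2 alone overlapped. Without that mouse the log2 fold changes were 2.99 for S100a8 and 2.11 for S100a9, and edgeR called both, but S100a8 had at most 10 counts in any Day 2 mouse, so its call is no support. Of 21 neutrophil genes, 9 were tested and 0 passed. Since S100a8 passed the filter through Day 3, no direction is read from their median, which was 0.82, or 0.52 to 1.31 with 1 mouse left out in turn. The defining markers Ly6g and Cxcr2 had at most 2 and at most 14 counts in any of the 8 libraries, and Mpo had 0. The summed CPM of the 21 genes, of which Lcn2 is one, ran from 27.7 to 71.5 at Day 2 and from 98.9 to 286 at Day 3. Most of it was Lcn2 and Hdc. Hdc, the histidine decarboxylase, stood at 9.55, 16.8, 22.7 and 58.4 CPM at Day 2 and at 19.6, 80.9, 24.5 and 17.6 CPM at Day 3. The sum of the 5 defining markers overlapped, at 1.44 to 2.13 CPM at Day 2 and 1.90 to 8.53 CPM at Day 3.

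The chemokines that call these cells overlapped between days. Cxcl1, a neutrophil chemoattractant, was at 1.65, 11, 15.6 and 1.75 CPM at Day 2 and at 15.8, 0.918, 6.71 and 11.8 CPM at Day 3. Day 2 mice 1 and 4 and Day 3 mouse 2 were the low mice, and the log2 fold change of 0.22 (SE 0.81) turned negative without Day 2 mouse 1, Day 2 mouse 4 or Day 3 mouse 1. Cxcl2, its close relative, was at most 0.598 CPM at Day 2 and between 0.178 and 2.36 CPM at Day 3. Cxcl13, the B cell chemoattractant, had the smallest p of the 21 chemokines tested, with 0.474 to 1.01 CPM at Day 2, 0.800 to 2.86 CPM at Day 3 and a log2 fold change of 1.35 (SE 0.41, adjusted p = 0.845 by edgeR). Ccl6, a CC chemokine of mouse myeloid cells, was at 7.12 to 10.9 CPM at Day 2 and at 13.9, 5.16, 23.5 and 22.7 CPM at Day 3. Ccl20, the ligand of Ccr6, was under 1 CPM in all 8 mice, with a log2 fold change of -0.16 (SE 0.64) that turned positive without Day 2 mouse 2, Day 2 mouse 3 or Day 3 mouse 2. Of the 21 tested, 16 had a positive log2 fold change, 0 passed and the median was 0.20, or 0.44 without Day 3 mouse 2.

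A short stretch of the Cxcl1 promoter is shown for its NF-kB motif, since NF-kB is the textbook inducer of this gene. The RefSeq promoter table (GRCm38.p6) gives 300 bases around each start. For Cxcl1 they hold 1 exact match to an NF-kB motif, which begins 71 bases before the start, and 0.0883% of the 32851 promoters in the table hold that motif on either strand, as do 0.117% of those of the genes tested. In chr5:90891164-90891193, plus strand, the match is in capitals:
Cxcl1: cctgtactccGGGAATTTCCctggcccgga

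Of the 40 cytokine and acute phase genes, 28 were tested, 22 had a positive log2 fold change, 0 passed, and the median was 0.27, or 0.18 without Day 3 mouse 1. Il1rn, the interleukin 1 receptor antagonist, was at 0.174, 1.13, 2.47 and 0.0474 CPM at Day 2 and at 2.63, 0.474, 1.85 and 2.40 CPM at Day 3. Lif, a cytokine of the interleukin 6 family, was at 5.90, 9.36, 11.8 and 3.79 CPM and then at 21.3, 1.45, 11.9 and 19.2 CPM. Both overlapped between days, with log2 fold changes of 0.90 (SE 0.80) and 0.80 (SE 0.61). Tnf did not pass the filter on low counts. Socs3, which damps signalling through STAT3, was at 10.2, 14.4, 17.2 and 5.73 CPM at Day 2 and at 44.3, 6.64, 24.4 and 33.4 CPM at Day 3 (log2 fold change 1.19, SE 0.49, adjusted p = 0.969 by edgeR). Day 3 mouse 2 was again the low mouse. Saa1, an acute phase protein, reached 6.11 CPM in Day 3 mouse 1 and was at most 1.08 CPM at Day 2.

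Socs3 is a textbook STAT3 target, and its promoter held 1 match to the STAT motif TTCNNNGAA, 154 bases before the start. Of all RefSeq promoters of this length, 8.30% hold that motif, and of those of tested genes 8.33%. In chr11:117969501-117969530, minus strand, with the motif in capitals, it reads:
Socs3: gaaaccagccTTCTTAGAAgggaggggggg

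Fibrinogen, complement and clotting genes numbered 22, all tested, with 16 positive log2 fold changes, 0 past the threshold and a median of 0.26, or 0.16 without Day 2 mouse 4. Fgg, the gamma chain of fibrinogen, was at 10.8, 41.5, 40.8 and 8.01 CPM at Day 2 and at 151, 28.2, 37.4 and 54.3 CPM at Day 3. Fgb, the beta chain, ranged from 1.71 to 9.45 CPM and then from 7.91 to 18.4 CPM, with Day 3 mouse 2 the highest. C3, the central complement component, was at 286, 188, 197 and 182 CPM and then at 414, 163, 418 and 329 CPM. Its log2 fold change was 0.63 (SE 0.28). Without the pair of libraries that stood apart it was 1.04, with an adjusted p of 0.0210 by edgeR and below the fold threshold.

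Of 32 macrophage and monocyte genes, 30 were tested, 19 had a positive log2 fold change and 0 passed. Lyz2, the lysozyme of myeloid cells, was higher in every Day 3 mouse. It stood at 15.2, 11.7, 15.2 and 21.6 CPM at Day 2 and at 25.6, 25.1, 33.7 and 27.6 CPM at Day 3 (log2 fold change 0.82, SE 0.19, adjusted p = 0.568 by edgeR). Fcgr3, a receptor for IgG, was at 2.75 to 3.69 CPM at Day 2 and at 6.54, 3.44, 6.98 and 6.48 CPM at Day 3. Ctss, the lysosomal protease cathepsin S, was at 7.15 to 8.97 CPM and then at 13.1, 8.53, 13.3 and 13.4 CPM. Adgre1, the macrophage marker F4/80, was at 2.27 to 3.79 CPM and then at 2.69 to 4.03 CPM. Cd74, the invariant chain of antigen presentation, was lower in value, at 76.1 to 206 CPM and then at 47.2, 137, 63.1 and 45.6 CPM. The summed level of all 32 genes ranged from 775 to 1527 CPM at Day 2 and from 812 to 1203 CPM at Day 3. Nkg7, of cytotoxic lymphocytes, was at 0.429 to 0.521 CPM at Day 2 and at 0.149 to 0.385 CPM at Day 3, without overlap. Its counts were 11 to 14 and then 4 to 13, and it passed the filter through Day 2, so this is no support. The 26 lymphocyte and NK cell genes summed to 18.4 to 28.6 CPM at Day 2 and 16.3 to 34.0 CPM at Day 3.

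The p53 targets had a wide spread among mice. Cdkn1a, the cyclin-dependent kinase inhibitor p21, was at 384, 419.8, 474 and 115 CPM at Day 2 and at 459.7, 29.2, 382 and 422 CPM at Day 3, against 8.30 to 21.3 CPM in the 4 female mice at Day 0 on the scale of the 16 female libraries. Day 2 mouse 4 and Day 3 mouse 2 were the low mice. The log2 fold change between days was -0.11 (SE 0.65) and turned to 0.28 without Day 3 mouse 2 and to 0.076 without Day 2 mouse 3. Mdm2, the ubiquitin ligase of p53, ranged from 66.8 to 157 CPM at Day 2 and was at 161, 46.4, 129 and 153 CPM at Day 3. Ccng1, cyclin G1, was at 481, 1244, 1210.2 and 837 CPM at Day 2 and at 1030.2, 203, 952 and 1017 CPM at Day 3. Ephx1, an epoxide hydrolase, and Sesn2, a stress-induced sestrin, also had their lowest value in Day 3 mouse 2, at 91.5 and 64.4 CPM. Of the 35 genes of the list, all tested, 11 had a positive log2 fold change, 0 passed, and the median was -0.11, or 0.11 without Day 3 mouse 2. The summed level of the list was 2657 to 4857 CPM at Day 2, 1124 CPM in Day 3 mouse 2 and 3762 to 4332 CPM in the other Day 3 mice. Xpc, which recognises damaged DNA, was the member whose groups did not overlap, at 55.5 to 59.9 CPM and then at 45.7 to 54.5 CPM.

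Of 45 cell cycle and DNA replication genes, 44 were tested, 29 had a positive log2 fold change, 0 passed and the median was 0.19, or 0.10 without Day 3 mouse 1. Pola1, the catalytic subunit of DNA polymerase alpha, did not overlap between days. It was at 0.911, 1.87, 1.53 and 1.33 CPM at Day 2 and at 3.58, 2.90, 2.30 and 2.55 CPM at Day 3 (log2 fold change 0.99, SE 0.27, adjusted p = 0.736 by edgeR). Top2a, the topoisomerase of dividing cells, was at 0.824, 1.10, 1.35 and 1.99 CPM and then at 5.78, 1.27, 3.73 and 2.58 CPM. Kif11, a kinesin of the spindle, was at 0.429 to 0.598 CPM and then at 0.593 to 1.22 CPM. Mki67, the proliferation marker Ki-67, was at 0.613 to 2.65 CPM and then at 2.06 to 3.38 CPM. Pola1 is shown because its promoter held 1 match to the E2F motif TTTGGCGC, on the strand opposite to the gene and 138 bases before the start; 0.514% of all promoters and 1.03% of those of tested genes hold this motif. The stretch chrX:93632275-93632304, minus strand, has the match in capitals:
Pola1: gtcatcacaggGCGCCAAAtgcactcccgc

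In the proximal tubule, Slc34a1 was high in the mice in which Krt20 and Cxcl1 were low. This sodium-phosphate cotransporter was at 6864, 2062, 1639 and 3857 CPM at Day 2 and at 1483, 4245, 1759 and 1929 CPM at Day 3, with the high values in Day 2 mice 1 and 4 and in Day 3 mouse 2. Its log2 fold change was -0.62 (SE 0.47), and it was -1.06 (SE 0.44) without Day 3 mouse 2 and -0.098 (SE 0.44) without Day 2 mouse 1. Lrp2, the endocytic receptor megalin, was at 1590.3, 1133, 846 and 1596 CPM and then at 803, 2334, 1104 and 755 CPM. Slc22a6, the organic anion transporter OAT1, was at 903, 353, 375 and 520.3 CPM and then at 341 to 387 CPM. Amn, the partner of cubilin, was at 506, 177, 203 and 244 CPM and then at 143 to 185 CPM (log2 fold change -0.77, SE 0.30, adjusted p = 0.969 by edgeR), and it was -0.33 without Day 2 mouse 1. Of the 40 genes, all tested, 3 had a positive log2 fold change, 0 passed and the median was -0.23. That median was -0.54 without Day 3 mouse 2 and -0.000953 without Day 2 mouse 1.

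Further along the tubule, Umod, the uromodulin of the thick ascending limb, was at 1802 to 2691 CPM at Day 2 and at 1479 to 2950 CPM at Day 3, and Slc12a1, the furosemide-sensitive transporter of that segment, at 659 to 1133 CPM and then at 607 to 1602 CPM. Egf, made in the distal tubule, was at 731, 569, 504 and 1036 CPM and then at 432, 1614, 893 and 514 CPM, with the highest value in Day 3 mouse 2. Foxi1, the transcription factor of intercalated cells, was lower in every Day 3 mouse, at 61.9, 37.2, 38.3 and 46.1 CPM and then at 33.0, 30.6, 33.2 and 36.2 CPM (log2 fold change -0.46, SE 0.17, adjusted p = 0.969 by edgeR). Hsd11b2, which inactivates glucocorticoids in the collecting duct, was at 237 to 478 CPM and then at 202 to 244 CPM. In the interstitium, Dcn, the proteoglycan decorin, was at 55.1, 73.5, 84.0 and 87.8 CPM and then at 129.6, 76.5, 167 and 110.0 CPM. Ren1, renin, was at 188, 57.1, 69.6 and 80.3 CPM and then at 55.5, 75.2, 38.9 and 56.0 CPM.

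**Figure D2:**
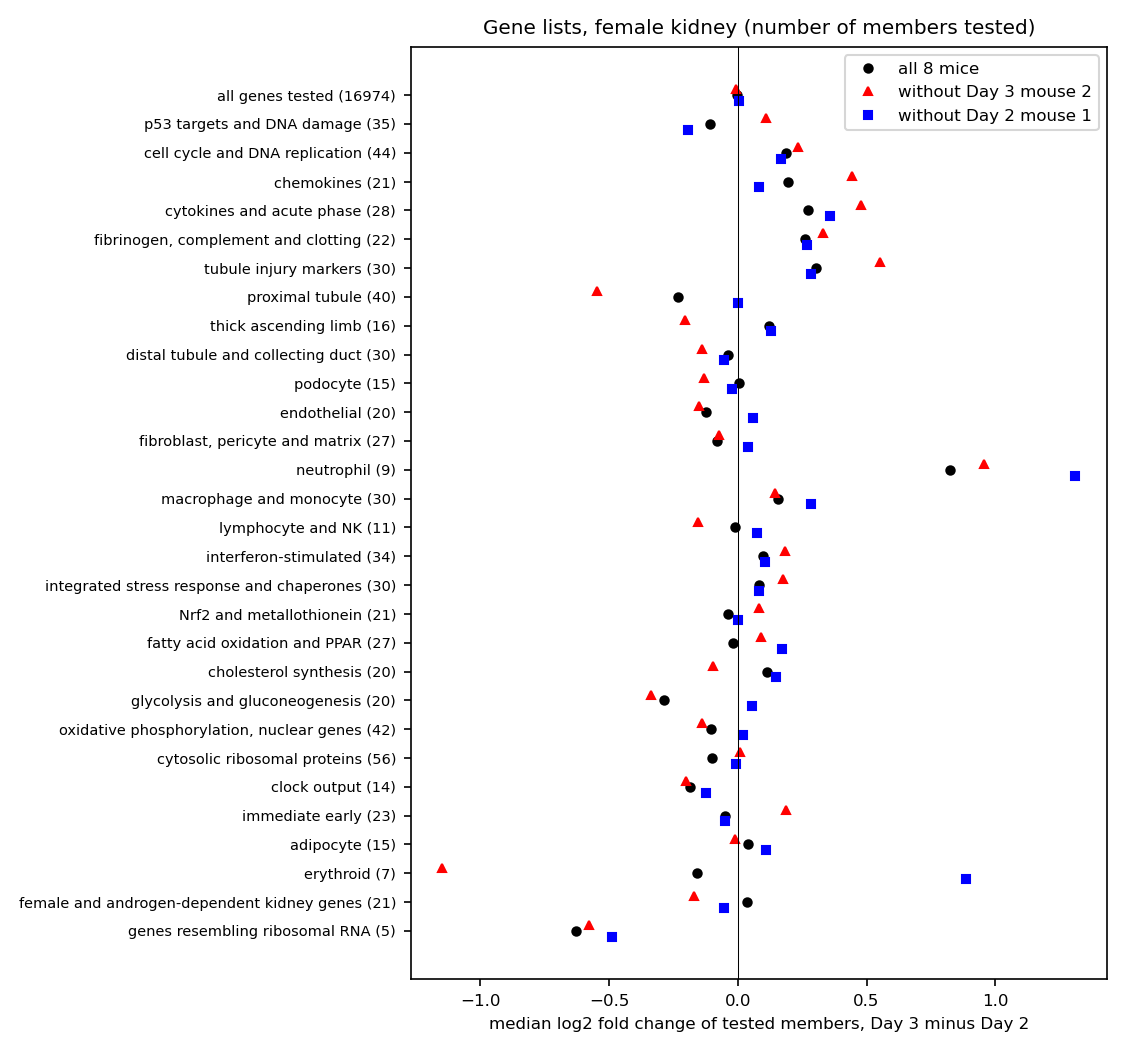
Median log2 fold change, Day 3 minus Day 2, of the tested members of each gene list (number in brackets) with all 8 mice (black circles), without Day 3 mouse 2 (red triangles) and without Day 2 mouse 1 (blue squares). The proximal tubule median moves from -0.23 to -0.54 and -0.000953, and that of the tubule injury markers from 0.30 to 0.55 and 0.28; the adrenal and hepatocyte lists are not plotted, since some of their members passed the filter through Day 3 alone, as did S100a8 of the neutrophil list, which is plotted.

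The steepest fold changes lay in genes of steroid synthesis. Hsd3b1 encodes a steroid dehydrogenase that turns pregnenolone into progesterone in the adrenal gland, which sits on the kidney. It was at 0.347, 0.123, 0.224 and 0.284 CPM at Day 2 and at 76.3, 7.76, 473 and 623 CPM at Day 3. Cyp11a1, the enzyme that cleaves the side chain of cholesterol, was at 0.0307 to 0.187 CPM at Day 2 and at 20.6, 2.49, 178 and 202 CPM at Day 3. Cyp21a1, the steroid 21-hydroxylase, was at 0.189 to 0.299 CPM and then at 1.25, 7.23, 572 and 795 CPM. Mice 3 and 4 of Day 3 were the high mice. The log2 fold changes were 10.27 (SE 1.52), 10.10 (SE 1.68) and 10.35 (SE 2.17), with adjusted p-values of 0.321, 0.378 and 0.551 by edgeR.

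The whole adrenal list of 14 genes summed to between 4.12 and 6.13 CPM in the Day 2 mice and to 114, 35.9, 2374 and 2954 CPM in Day 3 mice 1 to 4. Of its genes, 7 passed the filter, and 6 of them, all but Star, had at most 12 counts in any Day 2 mouse, so their count is no support. Star, which carries cholesterol into mitochondria, was at 3.04, 5.03, 4.71 and 4.22 CPM at Day 2 and at 7.19, 12, 574 and 643 CPM at Day 3. Nr5a1, the steroidogenic transcription factor SF-1, had 0 counts in all 4 Day 2 mice and 217, 15, 1149 and 1123 counts in the Day 3 mice. Th, the tyrosine hydroxylase of the adrenal medulla, had 2, 4, 371 and 251 counts in the Day 3 mice and at most 2 at Day 2, so that medulla as well as cortex genes were seen in mice 3 and 4. In mouse 1 of Day 3, Hsd3b1 had 2323 counts while Cyp21a1 had 38 and Cyp11b1, of the final step to corticosterone, had 23. The ratio among these genes thus differed between mouse 1 and mice 3 and 4, in which Cyp21a1 had 19185 and 21238 counts and Hsd3b1 had 15852 and 16652. How the kidney was freed from the adrenal gland in each mouse is not given in the sources used here, and the part of carried adrenal tissue in these values was not tested.

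Akr1cl, an aldo-keto reductase, Mgarp, a mitochondrial protein, and Rims4, a protein of secretory vesicle release, also did not overlap. Akr1cl had at most 3 counts at Day 2 and 1357, 74, 1300 and 1387 counts at Day 3, at least 242-fold higher against 3 counts per library. Mgarp was at 0.0434 to 0.374 CPM and then at 4.43, 0.474, 21.3 and 25.0 CPM, and Rims4 at 0.130 to 0.411 CPM and then at 1.97, 0.918, 12.3 and 14.0 CPM. Mgarp had at most 10 and Rims4 at most 11 counts in any Day 2 mouse. Akr1cl, Mgarp and Rims4 passed the filter through Day 3, so their lack of overlap is a description and no support. In male mice Hsd3b1 ranged from 2.63 to 147 CPM at Day 2 and from 0 to 24.3 CPM at Day 3. On the scale of the 16 female libraries, Hsd3b1 at Day 0 ranged from 0.0361 to 101 CPM, and at Day 5 from 119 to 389 CPM.

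**Figure D3:**
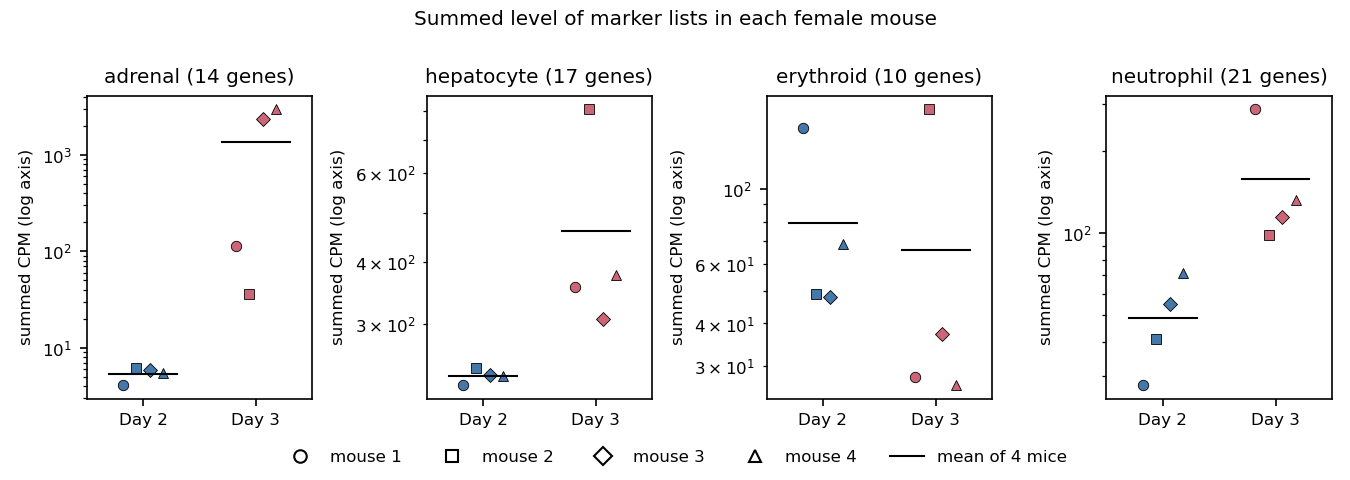
Summed CPM (log axes) of all genes of 4 marker lists in each Day 2 (blue) and Day 3 (red) female mouse; symbols mark the mouse number and bars the mean of 4 mice. The adrenal sums of Day 3 mice 3 and 4 are 2374 and 2954 against at most 6.13 at Day 2, and the hepatocyte sum is highest in Day 3 mouse 2, at 804.

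Plasma protein and liver genes made a further group. Ahsg, the plasma protein fetuin-A, was at 0 to 0.217 CPM at Day 2 and at 0.788, 24.2, 3.10 and 2.36 CPM at Day 3. Serpina3k, a plasma protease inhibitor, was at 0.0434 to 0.237 CPM and then at 1.41, 35.8, 4.77 and 7.45 CPM. Apoh, a plasma apolipoprotein, had at most 3 counts in a Day 2 mouse and 17, 257, 46 and 25 counts in the Day 3 mice. Mat1a, the methionine adenosyltransferase of liver, had at most 2 counts and then 15, 442, 72 and 46 counts. Day 3 mouse 2, which was low in injury genes, was the highest mouse in all 4 of these genes. Without it the log2 fold change was 4.49 in place of 6.37 for Ahsg, 5.03 in place of 6.47 for Serpina3k, 3.95 in place of 5.40 for Apoh and 4.78 in place of 6.37 for Mat1a. These 4 genes had at most 6 counts in any Day 2 mouse and passed the filter through Day 3, so the calls that edgeR made of them without that mouse are a description and no support. Albumin (Alb) was also highest in that mouse, with 139 to 239 counts at Day 2 and 358, 11849, 1113 and 873 counts at Day 3. Of 17 hepatocyte genes, 15 were tested and 0 passed in edgeR with all 8 mice. Their sum was 227 to 246 CPM at Day 2 and 355, 804, 307 and 375 CPM at Day 3, and the part of carried liver tissue was not tested. Kng1, kininogen, a plasma protein of liver that the kidney also makes, was at 1.26, 1.53, 1.68 and 0.568 CPM at Day 2 and at 7.39, 7.94, 5.28 and 3.93 CPM at Day 3 (log2 fold change 2.26, SE 0.34, adjusted p = 0.231 by edgeR). Kng1 was called by DESeq2 and by limma voom with sample quality weights. In edgeR it was called with no filter on low counts and without Day 3 mouse 2. The female mice at Day 0 ranged from 0.479 to 235 CPM in Kng1, on the scale of the 16 female libraries.

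**Figure D4:**
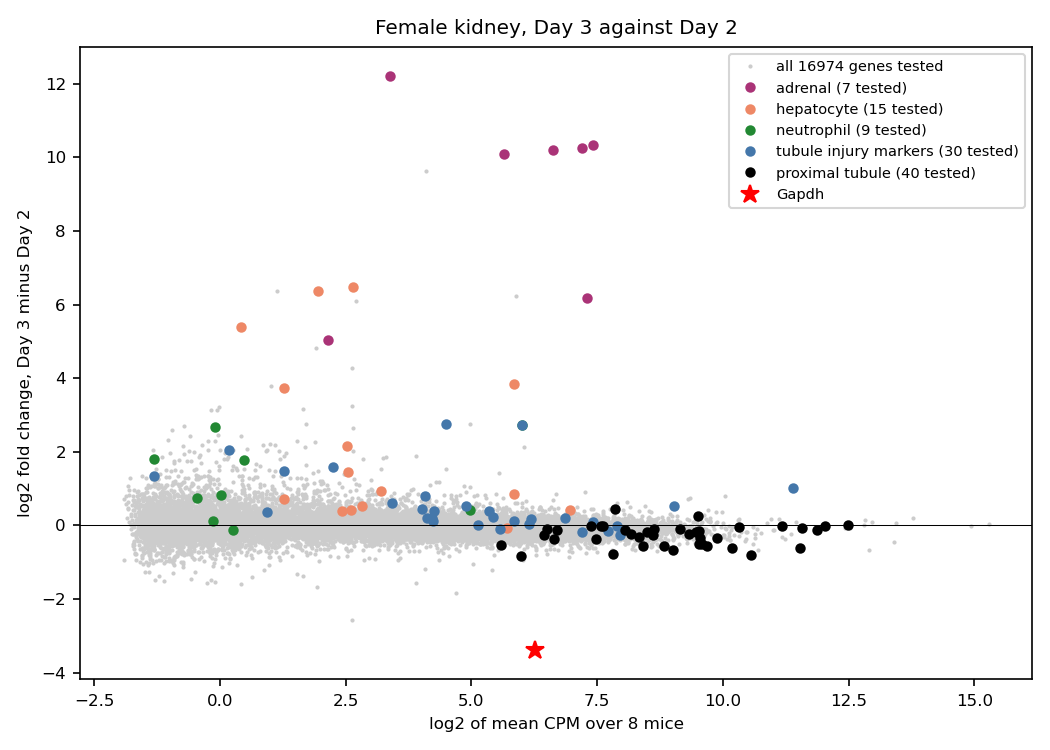
Log2 fold change, Day 3 minus Day 2, against the log2 of the mean CPM over 8 mice for 16974 genes (grey), with the tested members of 5 lists in colour and Gapdh as a star. Among the coloured points, the adrenal gene Hsd3b1 lies at 10.27, the hepatocyte gene Serpina3k at 6.47 and Gapdh lowest at -3.39. No point passed the adjusted p threshold in edgeR.

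Red cell genes differed among mice as well. The summed level of 10 erythroid genes was 152, 48.8, 48.0 and 68.5 CPM at Day 2 and 27.7, 172, 37.2 and 26.3 CPM at Day 3, highest in the pair of libraries that stood apart. Of 7 tested, 3 had a positive log2 fold change, and the median of -0.16 was -1.15 without Day 3 mouse 2 and 0.88 without Day 2 mouse 1.

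The lists of the called genes are given as a description and no support. Most of the adrenal genes, several of the hepatocyte genes, Akr1cl and S100a8 had few counts at Day 2. Of the 60 genes that DESeq2 called higher, 10 were of the adrenal list, 6 of the hepatocyte list, 1 of the neutrophil list (S100a8) and 1 of the tubule injury list (Cd44). Without Day 3 mouse 2, edgeR's 27 genes called higher held 3 adrenal genes, 3 hepatocyte genes and 3 neutrophil genes, the last being Lcn2, S100a8 and S100a9, of which Lcn2 is also the 1 gene called from the tubule injury list. Without Day 3 mice 3 and 4 together, edgeR called 0 genes, and without Day 2 mouse 1 and Day 3 mouse 2 together it called 5 genes higher (0.0292%) and 0 lower, namely Akr1cl, Cyp4a14, Il1f6, Apod and Slpi. Il1f6, Apod and Slpi lie outside the naming rule and were named after their values were seen. Cyp4a14, a fatty acid hydroxylase induced by PPAR alpha, was at 1480.4, 519.8, 621 and 486 CPM at Day 2 and at 1732, 374, 1428 and 1838 CPM at Day 3, and it was called only with both mice left out, among the settings run.

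Outside these groups, several named genes did not overlap between days. Fam129a, the stress protein Niban, was at 16.2, 22.1, 21.5 and 22.3 CPM and then at 40.1, 29.6, 37.1 and 47.8 CPM (log2 fold change 0.91, SE 0.17). Ccnd2, cyclin D2, was at 12.8, 11.5, 13.1 and 16.5 CPM and then at 19.7 to 26.8 CPM (log2 fold change 0.71, SE 0.16). DESeq2 gave Fam129a, Ccnd2 and Lyz2 an adjusted p under 0.05 with a change below the fold threshold. Nupr1, a stress-induced chromatin protein, was at 22.4 to 31.7 CPM and then at 34.2 to 37.5 CPM.

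**Figure D5:**
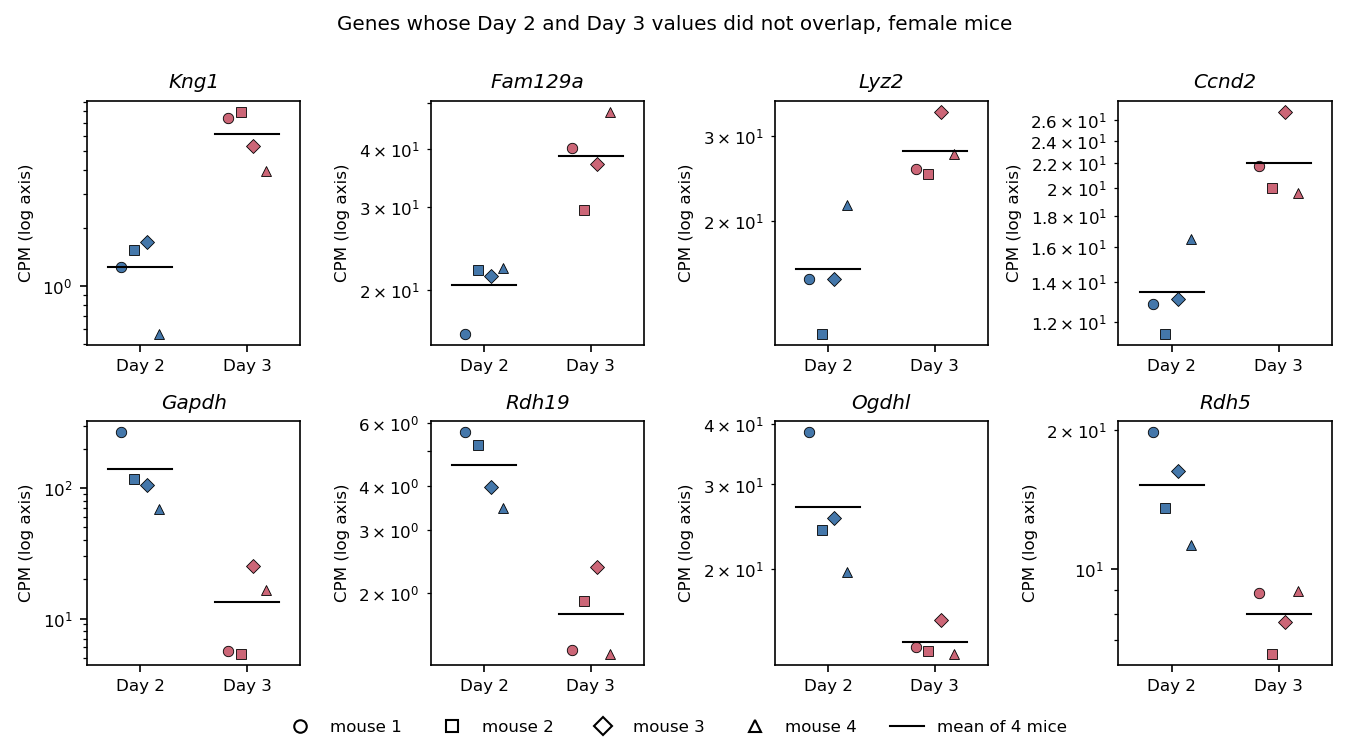
CPM (log axes, each gene on its own range) of 4 genes that were higher and 4 that were lower in every Day 3 mouse (red) than in every Day 2 mouse (blue); symbols mark the mouse number and bars the mean of 4 mice. Kng1 runs from 0.568 to 1.68 at Day 2 and from 3.93 to 7.94 at Day 3, and Gapdh from 69.0 to 267 and from 5.36 to 25.4.

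Gapdh, the glycolytic enzyme that is often used as a reference gene (GRCm38 chr6:125161715-125166467, minus strand), had the lowest log2 fold change of the 16974 genes. It was at 267, 117, 105 and 69.0 CPM at Day 2 and at 5.65, 5.36, 25.4 and 16.6 CPM at Day 3, from 1456 to 6150 and from 172 to 852 counts. The log2 fold change was -3.39 (SE 0.58, adjusted p = 0.321 by edgeR), and DESeq2 called it. On the scale of the 16 female libraries it ranged from 215 to 745 CPM at Day 0, against 57.2 to 225 CPM at Day 2. The mouse genome carries many processed copies of Gapdh, so that reads may be split among copies or left uncounted, and its level is uncertain. The part of this in the difference between days was not tested. Of the 20 glycolysis and gluconeogenesis genes, all tested, among which Gapdh is not counted, 6 had a positive log2 fold change and 0 passed. Their median was -0.29, and 0.055 without Day 2 mouse 1. Hk2, a hexokinase, was at 2.69 to 5.07 CPM and then at 4.37 to 7.61 CPM.

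Of the genes named for being lower in every Day 3 mouse, Rdh19 and Rdh5 encode retinol dehydrogenases. Rdh19 was at 5.64, 5.18, 3.96 and 3.46 CPM and then at 1.38, 1.90, 2.36 and 1.35 CPM (log2 fold change -1.38, SE 0.26), and Rdh5 at 19.8, 13.6, 16.3 and 11.3 CPM and then at 8.87, 6.55, 7.67 and 8.95 CPM (log2 fold change -0.93, SE 0.20). Ogdhl, related to oxoglutarate dehydrogenase, was at 38.5, 24.1, 25.5 and 19.8 CPM and then at 13.8, 13.6, 15.7 and 13.4 CPM. Mdk, the growth factor midkine, was at 31.7 to 63.2 CPM and then at 14.3 to 26.0 CPM. None of the 4 passed in edgeR, and in DESeq2 each had an adjusted p under 0.05 below the fold threshold. Ces1g, a carboxylesterase, was at 24.2, 3.56, 5.42 and 9 CPM and then at 0.591, 3.26, 1.25 and 1.95 CPM. Further named genes in this direction were Cyp2j13, a cytochrome P450, at 1.66 to 2.98 CPM and then at 0.563 to 1.52 CPM, Hmcn2, a hemicentin of the matrix, at 22.5 to 39.1 CPM and then at 13.3 to 20.1 CPM, and 3110070M22Rik, a protein-coding gene known by its clone name, at 0.767 to 2.04 CPM and then at 0.237 to 0.686 CPM.

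Dusp1, the phosphatase that switches off MAP kinases, was lower in every Day 3 mouse, at 92.6, 88.6, 107 and 169 CPM and then at 72.8, 56.2, 67.2 and 71.6 CPM (log2 fold change -0.77, SE 0.21, adjusted p = 0.747 by edgeR). Of the 24 immediate early genes, 23 were tested, 10 had a positive log2 fold change and 0 passed. Myc was at 5.73 to 10.1 CPM and then at 21.8, 5.57, 12 and 16 CPM, and the nuclear receptor Nr4a3 at 0.426 to 0.521 CPM and then at 1.05, 0.326, 3.49 and 2.13 CPM.

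Some clock output genes were lower in value at Day 3. Ciart, a repressor of the circadian clock, was at 11.9, 7.51, 7.44 and 11.5 CPM and then at 4.99, 2.93, 4.74 and 7.30 CPM (log2 fold change -0.94, SE 0.28, adjusted p = 0.782 by edgeR). Per1 was at 167, 121, 123 and 105 CPM and then at 91.0, 43.1, 91.8 and 99.3 CPM. Neither overlapped, whereas Dbp, a transcription factor that follows the clock, was at 239.6, 99.3, 92.7 and 202 CPM and then at 79.2, 95.2, 77 and 98 CPM. Of the 14 genes of this list, all tested, 4 had a positive log2 fold change, 0 passed and the median was -0.19. The hour at which each mouse was taken is not given in the sources used here.

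The promoters of Ciart and Dusp1 are shown because both genes did not overlap and both promoters held the E-box CACGTG, which the clock proteins are known to bind. Ciart held 3 matches, which begin 116, 58 and 44 bases before the start, and Dusp1 held 1 at 126 bases as well as 1 match to the cAMP response element TGACGTCA at 143 bases. An E-box is in 7.15% of all promoters of this length and TGACGTCA in 1.79%, or in 3.24% of those of tested genes. Both genes are on the minus strand, and the stretches chr3:95882327-95882356 and chr3:95882262-95882291 of Ciart and chr17:26508597-26508626 and chr17:26508581-26508610 of Dusp1 have the matches in capitals:
Ciart upstream: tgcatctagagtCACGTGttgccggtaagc
Ciart near the start: ggaggCACGTGcagaaccgCACGTGtctgg
Dusp1 TGACGTCA: ggtagggcgggTGACGTCAccgcccggtca
Dusp1 CACGTG: tcaccgcccggtCACGTGtctgccattcaa
Of the genes tested whose promoter is in the RefSeq table, 11.1% of 11999 hold an E-box, against 16.3% of 153 that were lower without overlap and 10.6% of 189 that were higher without overlap. In the same order, TTCNNNGAA was in 8.33%, 9.15% and 11.6%, and TTTGGCGC in 1.03%, 0% and 2.65%. These shares were not tested. A match of letters is a description and no binding was measured.

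No metabolic or stress gene passed the threshold. Gsta4, a glutathione transferase, was at 262, 164, 194 and 208 CPM and then at 114, 129.9, 136 and 156 CPM, without overlap, and Herpud1, of protein degradation at the endoplasmic reticulum, at 374 to 668 CPM and then at 261 to 356 CPM. Mthfd2, a mitochondrial folate enzyme, was at 3.38 to 6.72 CPM and then at 6.31 to 10.1 CPM. Dhcr7, the last enzyme of cholesterol synthesis, was at 28.6, 14.1, 15.8 and 16.2 CPM and then at 16.5, 29.6, 52.7 and 57.7 CPM, highest in the same Day 3 mice as the adrenal genes, and Msmo1, an earlier enzyme, at 15.3 to 26.2 CPM and then at 24.8 to 43.2 CPM. Of genes whose level depends on sex in the kidney, Timd2, a ferritin receptor, was at 1.61 to 2.37 CPM and then at 2.58 to 5.45 CPM, Abcc3, an efflux transporter, at 122 to 236 CPM and then at 72.6 to 116 CPM, and Slc7a13, an amino acid transporter, at 1.20 to 1.71 CPM and then at 0.328, 1.13, 0.179 and 0.262 CPM. Without Day 3 mouse 2, Slc7a13 was the gene that edgeR called lower, with a log2 fold change of -2.42 and an adjusted p of 0.0322 by edgeR. In the remaining Day 3 mice it was at most 0.328 CPM. It passed the filter through Day 2 there, so its call is no support.

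In the lists not yet described no gene passed the threshold. The log2 fold change was positive in 10 of 16 thick ascending limb genes (median 0.12), 14 of 30 distal tubule and collecting duct genes (-0.037), 8 of 15 podocyte genes (0.0044), 6 of 20 endothelial genes (-0.12) and 10 of 27 fibroblast, pericyte and matrix genes (-0.081). It was positive in 22 of 34 interferon-stimulated genes (median 0.099), 17 of 30 genes of the integrated stress response and chaperones (0.081), 9 of 21 Nrf2 and metallothionein genes (-0.036) and 11 of 27 genes of fatty acid oxidation and PPAR (-0.018). For 20 cholesterol synthesis genes the count was 14 (median 0.11), for 42 nuclear genes of oxidative phosphorylation 11 (-0.10), for 56 ribosomal protein genes 16 (-0.10), for 11 lymphocyte and NK cell genes 5 (-0.0092), for 15 adipocyte genes 11 (0.041) and for 21 sex-dependent kidney genes 11 (0.037). With 1 mouse left out in turn, the median kept its sign in the distal tubule and collecting duct list and in the interferon-stimulated list, and it changed sign in each of the others just given. The thick ascending limb median, for example, ran from -0.20 to 0.22 and that of cholesterol synthesis from -0.096 to 0.24. The 5 genes that resemble ribosomal RNA were all negative, with a median of -0.63. The 9 genes of that list together took between 1.38% and 2.82% of the counts of a library.

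The same days were compared in male mice, which share no library with the females. There, 0 of 16232 genes were called by edgeR (0%), and 1410 had an unadjusted p under 0.05 (8.69%). The difference between the female and the male change was tested directly over 16 libraries. Of 17517 genes, 0 passed an adjusted p of 0.05 in edgeR (0%) and 791 had an unadjusted p under 0.05 (4.52%), while the DESeq2 Wald test called 64 of 24905 (0.257%), 12 of them of the adrenal list. The 5 genes of smallest p in edgeR, each with an adjusted p of 0.302, were Kng1, the neuronal proteolipid gene Nnat, the calcium sensor of exocytosis Doc2b, Ccnd2 and the serine protease gene Prss35. Kng1 had a log2 fold change of 2.26 in females and -1.17 (SE 0.45) in males, a difference of 3.44 (SE 0.58). Prss35 stood at 2.03 (SE 0.57) and -2.28 (SE 0.58). Its Day 3 values in females were 4.83, 2.01, 16.8 and 16.4 CPM, high in the same mice as the adrenal genes. Doc2b was at 0.368 to 0.521 CPM and then at 2.53, 0.770, 2.03 and 1.46 CPM in females, and Nnat at 3.27 to 4.82 CPM and then at 3.97 to 6.06 CPM. Havcr1, 2.76 in females, was -2.78 (SE 1.12) in males, where Day 2 ranged from 1.65 to 77.8 CPM and Day 3 from 1.81 to 4.21 CPM, and the difference of 5.56 (SE 1.76) had an adjusted p of 0.660 by edgeR.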

How the data were processed

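RNA of whole kidneys was sequenced by the authors as paired reads of 150 bases. They deposited whole-number read counts per gene for 54532 genes and, for the same libraries, FPKM values, in which each count is divided by gene length and an effective library size. The processing notes name HTSeq and DESeq2 without versions and the build GRCm39, whereas the coordinates in the deposited table are those of GRCm38, which the study's methods also name; the aligner and strandedness are not given in the sources used here. Groups came from the sample labels.

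For the 8 libraries, edgeR 4.0.16 (R 4.3.3) was run on the counts with TMM scaling, filterByExpr and the robust quasi-likelihood fit, which left 16974 genes. Duplicate library pairs numbered 0. SE is that of the log2 fold change. Bounds on folds used a floor of 3 counts per library. The distance share used log2 CPM with a prior count of 2. Values are CPM scaled over the 8 libraries unless another scale is named. DESeq2 1.42.0 and limma 3.58.1, on voom values and on log2(FPKM + 1) and log2(FPKM + 0.1), were alternatives. So were other filters, fits and samples, and each mouse left out. The edgeR and DESeq2 tests of female Day 3 against Day 2 were checked on simulated counts.

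The gene lists, the tests and the genes were chosen with earlier results of these data known. Genes named are the 10 higher and 10 lower protein-coding genes of smallest p without overlap, up to 3 genes of smallest p per list and direction, 24 fixed genes and 5 of the interaction; not all of the per-list genes are printed, and a few results are not reported here. Same-numbered mice of the 2 days are separate animals. Promoters are from RefSeq. No column was left unmapped.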

Additional observations from a re-analysis of the deposited data

Results flagged for a closer look

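Each of 91 genes was checked in both groups of 4 mice for a mouse whose gap to its nearest neighbour took more of the group's range than Dixon's 95% critical value for 4 samples, and 19 of 182 groups met it. Chance gives about 1 in 20.

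In Day 3 mouse 2 the value stood apart in 10 genes. It was high in the liver genes Ahsg (24.2 CPM), Apoh (7.61 CPM) and Mat1a (13.1 CPM), in the proximal tubule gene Slc34a1 (4245 CPM) and in Slc7a13 (1.13 CPM). It was low in the p53 targets Ccng1 (203 CPM) and Sesn2 (64.4 CPM), in the myeloid genes Fcgr3 (3.44 CPM) and Ctss (8.53 CPM) and in Per1 (43.1 CPM). The parts of the response to cisplatin, of carried liver RNA and of RNA quality in this pattern were not tested.

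In Day 2 mouse 1, high values stood apart in C3 (286 CPM), Cd74 (206 CPM), Hmcn2 (39.1 CPM), Herpud1 (668 CPM), Dhcr7 (28.6 CPM) and Cyp4a14 (1480.4 CPM), and low values in Fam129a (16.2 CPM) and Cd44 (1.82 CPM). The same library had the lowest mitochondrial share of the 8, 4.87%. In Day 2 mouse 4, Cxcl2 stood apart at 0.0947 CPM, which is 2 counts.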

How the results depend on the processing

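The count of 0 DEGs also stood at 0 with DESeq2 size factors in edgeR, at least 10 counts in every library, a fit over the 4 female groups or over both sexes, no mitochondrial genes, both FPKM fits, other fold thresholds and without Day 3 mice 3 and 4. It was 61 (60 higher, 1 lower) by the DESeq2 Wald test, 2 (1 and 1) by limma voom with sample quality weights, 2 (both higher) with no filter on low counts, and 5 higher without Day 2 mouse 1 and Day 3 mouse 2, a setting chosen after seeing the data, as was leaving out Day 3 mice 3 and 4. With the mouse number as a replicate block it was 5, all higher, but same-numbered mice are not paired: their deviations from the day means correlated at -0.155 to 0.0332. Over the 8 mice left out in turn the total ran from 0 to 28, the genes called higher from 0 to 27 and those called lower from 0 to 1. The interaction count of 0 was 64 by the DESeq2 Wald test and 1 with the replicate block, and 0 whichever of the 16 mice was left out. The share of distance between days, 0.188, was 0.325 on the 500 most variable genes (exact permutation p = 0.0286), 0.136 with every gene scaled, and 0.172 to 0.258 with 1 mouse left out.

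Signs turned in 10 of 91 named log2 fold changes, none of them called. With 1 mouse, or either of those pairs of mice, left out, the log2 fold change of Krt20 ran from -0.49 to 0.89, of Cxcl1 from -0.23 to 0.85, of Ccl6 from -0.024 to 1.12, of Ccl20 from -0.53 to 0.24, of Cdkn1a from -0.51 to 0.33, of Mdm2 from -0.15 to 0.37, of Ccng1 from -0.61 to 0.087, of Ephx1 from -1.06 to 0.069, of Lrp2 from -0.54 to 0.28 and of Egf from -0.21 to 0.52. By limma voom with sample quality weights, Krt20 was -0.20, Cxcl1 -0.35 and Mdm2 -0.068. The cause was not tested. Genes at 3 counts or fewer, 0.142 CPM or less at Day 2, are near the limit of these depths.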

Other observations

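Some genes outside the lists and the naming rule were called or came near it under more than 1 setting and were named after their values were seen. Cpe, the carboxypeptidase E that processes peptide hormones, was at 25.4, 23.4, 24.9 and 26.9 CPM at Day 2 and at 46.1, 28.7, 52.7 and 50.2 CPM at Day 3, without overlap. Its log2 fold change was 0.82 (SE 0.18, adjusted p = 0.551 by edgeR), below the fold threshold, and its adjusted p was under 0.05 by DESeq2, by limma voom with sample quality weights and by edgeR without Day 3 mouse 2. Slpi, a secreted inhibitor of neutrophil elastase, was at 1.74, 0.429, 0.822 and 1.18 CPM at Day 2 and at 4.07, 1.24, 5.55 and 4.34 CPM at Day 3, where mouse 2 alone overlapped.

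Lyve1, the hyaluronan receptor of lymphatic vessels and of some resident macrophages, was at 2.04, 1.84, 1.91 and 2.37 CPM at Day 2 and at 6.14, 2.07, 9.52 and 5.17 CPM at Day 3. Apod, apolipoprotein D, was at 5.38, 3.80, 4.67 and 5.31 CPM at Day 2 and at 10.6, 2.90, 15.7 and 15.8 CPM at Day 3. Both were low in Day 3 mouse 2 and were called by edgeR without that mouse.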
